A study of Macaca mulatta with 5 samples.

Results

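Genes with several annotated transcripts were examined for the transcript that carried the highest level in each of 5 tissues of the rhesus macaque. A gene identifier was included when it had at least 2 transcripts, when these spanned less than 300000 bp of the genome, and when in every tissue the transcript with the most reads had at least 100. These conditions were met by 4442 of the 28633 gene identifiers, which held 12655 of 51763 transcripts. Of the 4442 genes, 2402 had 2 transcripts, 1128 had 3, 487 had 4 and 425 had 5 or more.

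Poly(A)-positive RNA from cerebellum, kidney, lung, heart and spleen was sequenced in strand-specific libraries made with the dUTP method, with 1 library of male tissue for each. The animal's age and strain are not given in the sources used here, and no treatment was named. Cerebellum, kidney, lung and heart came from the same macaque, and the animal behind the spleen library was not stated. With 1 sample per tissue there was no replicate error, no test between tissues was made, and every value below describes these libraries, in which a tissue, its cell types and its library cannot be told apart.

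A gene can give rise to different transcripts when transcription starts at another promoter, when exons are joined or skipped in another order, or when the RNA is cleaved and polyadenylated at another site. Muscle and brain are known for transcripts of their own, as in the tropomyosins, whose exons are exchanged between muscle and other cells, and in many brain transcripts that end further downstream than elsewhere. Proteins made from such transcripts can lack or gain domains that bind partners, membranes or the cytoskeleton.

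The level of a transcript was its RPKM, its reads scaled to kilobases of exon and to the properly mapped reads of the library. The share of a transcript was its percentage of the summed RPKM of its gene in a tissue, so that the scaling of a library cancels out. The top transcript was the one with the highest RPKM, and a gene was said to change when 2 tissues had different top transcripts. For such a pair of tissues, the top transcript of each was divided by the top transcript of the other tissue, and the smaller of both ratios was taken as the size of the change. A gene took the size of its strongest pair of tissues. Because the genes were chosen by these reads and RPKM values, the counts are descriptions. A change was called beyond counting error when the 95% exact Poisson intervals of both transcripts did not overlap in either tissue. Leads named for further tissues of the same gene can lie within counting error. These intervals cover the counting of reads only, and amplified reads are not independent molecules. A read in an exon that several transcripts share may have been counted on each of them, which was visible in 172 of the 4442 genes, where 2 transcripts had the same reads in all 5 tissues. The shares are therefore not estimates of the molecules of each transcript.

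Properly mapped reads ranged from 48306898 in kidney to 81517974 in cerebellum. The median reads of the top transcript of the 4442 genes ranged from 576.5 in heart to 1922.5 in lung, so the heart and kidney levels (median 956 reads in kidney) were the least precise. Marker genes of each tissue were highest in the library of that name for all 7 markers found for kidney, all 7 for lung, all 5 for heart and all 6 for spleen. In cerebellum 6 of 7 were, the exception being CALB1, the calcium-binding protein calbindin, at 108 RPKM in cerebellum and 488 RPKM in kidney. The summed level of 3 blood cell markers lay between 0 RPKM in cerebellum and 8.58 RPKM in kidney. The kidney sum rested on SLC4A1 (8.49 RPKM), with ALAS2 at 0.0863 and AHSP at 0 RPKM there, so it is no measure of blood in kidney.

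The top transcript differed between at least 2 tissues in 1278 of 4442 genes (28.8%), but mostly by little. The median size was 1.048-fold, and only 401 genes changed by at least 1.1-fold and 208 by at least 1.2-fold. The change was beyond counting error in 273 genes (6.15%), at least 1.5-fold in 62 (1.4%) and at least 2-fold in 33 (0.743%). Of the 62 genes, 61 were also beyond counting error in the same pair of tissues. Sizes of at least 5-fold were reached by 7 genes.

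The shares showed the same spread from many small to few large differences. The largest move of any transcript's share between 2 tissues had a median of 4.66 percentage points and was at least 20 points in 254 genes (5.72%). In 142 of these the top transcript stayed in place, and in 112 it changed. A move of at least 50 points was seen in 15 genes.

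Genes with more transcripts, which also offer more pairs to compare, changed more often. The top transcript changed in 21.6% of the genes with 2 transcripts, in 31.6% with 3, in 41.3% with 4 and in 47.5% with 5 or more. A change beyond counting error was found in 3.21%, 7.09%, 8.42% and 17.6% of these classes, and a change of at least 1.5-fold in 0.416%, 1.24%, 2.67% and 5.88%. In genes with 2 transcripts the top one held a median share of 53.6% in kidney and 54.3% in cerebellum, close to an even division, and in genes with 5 or more it held 22.9% and 24.5%. The share of the top transcript was highest in cerebellum in each of the 4 classes.

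**Figure D1:**
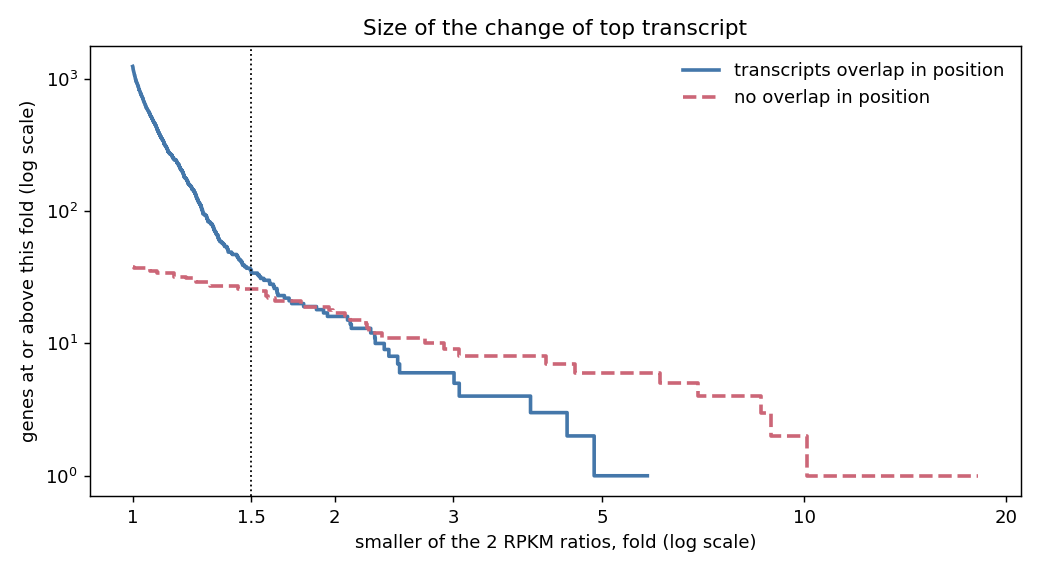
Number of genes (vertical axis, log scale) whose change of top transcript was at least as large as the fold on the horizontal axis (log scale), drawn as a solid line where the 2 transcripts overlapped in position and as a dashed line where they did not. At the dotted line of 1.5-fold, 36 genes with overlapping and 26 with non-overlapping transcripts remained, and above 5.84-fold all were of the second kind.

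The 4 pairs of tissues with cerebellum had the most changes beyond counting error. Cerebellum and kidney had different top transcripts beyond counting error in 179 genes (4.03%), cerebellum and spleen in 149 (3.35%), cerebellum and lung in 122 (2.75%) and cerebellum and heart in 82 (1.85%). Every pair without cerebellum had fewer, with 51 genes for heart and spleen (1.15%), 48 for kidney and heart (1.08%), 46 for kidney and lung (1.04%), 44 for lung and heart (0.991%), 43 for kidney and spleen (0.968%) and 22 for lung and spleen (0.495%). At a size of at least 1.5-fold the tissues were less distinct. Cerebellum differed from heart and from spleen in 27 genes each (0.608%), from kidney in 25 (0.563%) and from lung in 21 (0.473%), and heart from spleen in 23 (0.518%). Lower counts were those of kidney and heart with 18 (0.405%), lung and heart with 15 (0.338%), kidney and spleen with 14 (0.315%), kidney and lung with 11 (0.248%) and lung and spleen with 4 (0.09%). The count beyond counting error depends on depth, and heart had the fewest reads per gene. When genes were chosen anew without the cerebellum library, which left 4561 of them, 119 had a change beyond counting error and 38 one of at least 1.5-fold.

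**Figure D2:**
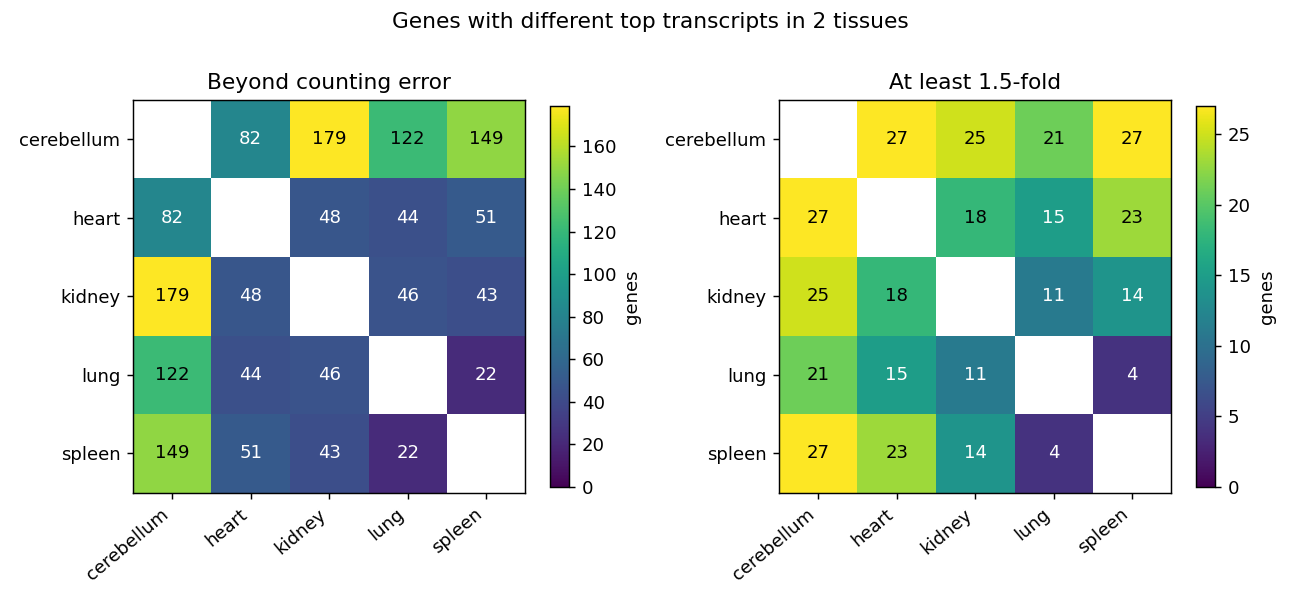
Number of genes with different top transcripts in each pair of the 5 tissues, beyond counting error (left) and by at least 1.5-fold (right), with the color scale giving genes. The row of cerebellum holds the highest counts on the left, from 82 to 179, and lung against spleen holds the lowest on both sides, at 22 and 4.

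In the 273 genes with a change beyond counting error, that change was required in any pair of tissues. The tissue whose top transcript differed from that of the other 4 was cerebellum in 76 of these genes, kidney in 19, heart in 9, lung in 7 and spleen in 6. The lone tissue did not have to differ from each of the others beyond counting error. In 111 genes 2 tissues shared a top transcript against the other 3, most often cerebellum with heart (30 genes) and kidney with spleen (24 genes). A further 45 genes had 3 or more top transcripts.

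How the transcripts lay to each other and how long their exons were did not enter the choice of the 4442 genes, apart from the limit on the span and the division of RPKM by exon length. In the 258 genes whose strongest pair of tissues was beyond counting error, 1 transcript lay inside the other in 127, both were staggered in 74, they shared a start or an end in 24 and both of these in 3. In the last 30 genes (11.6%) both transcripts had no base of the genome in common. Such transcripts were rare as the 2 transcripts of a gene with the highest RPKM summed over the tissues, at 18 of 4442 (0.405%). As strongest pairs they made up 38 of all 1278 changes (2.97%), 26 of 62 genes (41.9%) from 1.5-fold and 17 of 33 (51.5%) from 2-fold. The part of reads shared by overlapping transcripts in this rise was not tested. The longer transcript had at least 2 times the exon length of the shorter in 130 of the 258 genes (50.4%), against 350 of all 1278 changes (27.4%).

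Among changes beyond counting error, the longer transcript was mostly on top in cerebellum and the shorter in kidney. In the strongest pairs beyond counting error that included cerebellum, its top transcript was the shorter in 50 of 231 genes (21.6%). For kidney this was so in 125 of 157 genes (79.6%), for heart in 29 of 40 (72.5%), for spleen in 33 of 53 (62.3%) and for lung in 21 of 35 (60%). Each pair was counted for both of its tissues, and the shorter transcript was on top in only 1 of them. Cerebellum was in 231 of the 258 pairs, so the counts of the other tissues largely mirror its own. In the changes of at least 1.5-fold the shorter was on top less often in kidney, in 15 of 27 genes (55.6%), and more often in heart, in 16 of 21 (76.2%). At this size it was on top in cerebellum in 16 of 45 genes (35.6%), in spleen in 8 of 19 (42.1%) and in lung in 7 of 12 (58.3%). Among the genes in which 1 tissue alone differed, cerebellum had the longer transcript on top in 59 of 76 and kidney the shorter in 16 of 19.

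Over all 4442 genes, the exon lengths of a gene's transcripts were averaged with their RPKM as weights. Cerebellum again had the longest and kidney the shortest most often, while the other 3 tissues stood in another order. The weighted exon length was greatest in cerebellum in 1879 genes (42.3%), against 704 in heart (15.8%), 649 in spleen (14.6%), 598 in kidney (13.5%) and 513 in lung (11.5%). It was least in kidney in 1352 genes (30.4%), followed by cerebellum with 870 (19.6%), heart with 813 (18.3%), spleen with 782 (17.6%) and lung with 460 (10.4%). Cerebellum was thus often at the short extreme as well. In the 3164 genes without a change of top transcript, cerebellum had the greatest length in 1289 (40.7%). The differences were small, since the log2 ratio of cerebellum to kidney had a median of 0.0029 and an interquartile range of -0.00059 to 0.053. It exceeded 0.1 in either direction in 751 genes, of which 661 were longer in cerebellum and 90 in kidney. Kidney also had the fewest properly mapped reads and cerebellum the most. The part of depth, of RNA integrity or of coverage along the transcripts in this order was not tested.

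**Figure D3:**
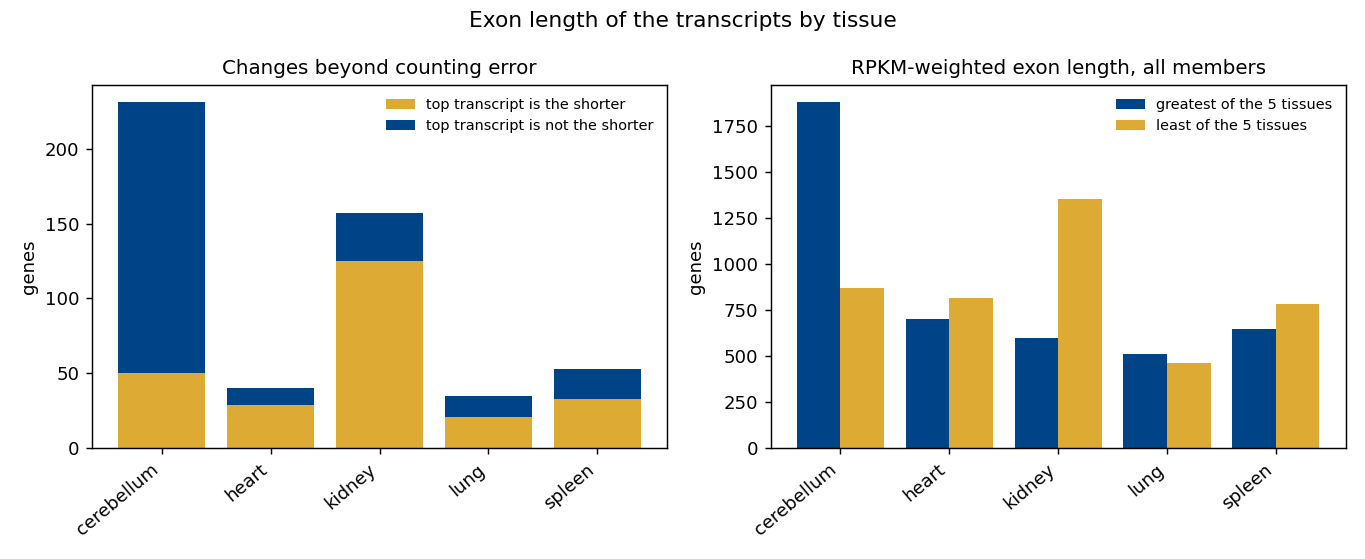
Left, genes whose strongest change of top transcript was beyond counting error, counted for each tissue of the pair and divided by whether its top transcript was the shorter or not (each gene is counted in 2 tissues). Right, genes of all 4442 in which the RPKM-weighted exon length was greatest or least in each tissue. Cerebellum has the longer transcript on top in most of its 231 genes and kidney the shorter in 125 of 157, and cerebellum has the greatest length in 1879 genes.

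The 20 genes with the largest changes between overlapping transcripts ranged from 5.84-fold in LDB3 to 1.80-fold in MDGA1, from 228 genes beyond counting error with overlapping transcripts over 200 bp. Positions are those of the rheMac2 assembly, with all transcripts of a gene included. The files give neither the strand nor the exons, so it is not said here which end of a gene a transcript lacks. When transcripts were ranked by reads, without the division by exon length, the changes in AGER, EPB41L5, MICAL2, SYNGR1, RPS27L, MDGA1 and ENSMMUG00000020001 were lost, as were those in ARAP1, ENSMMUG00000021473, DTNA and FOXN2 among the genes described further on. The size, as log2, was smaller by more than 1.5-fold in LDB3 (2.55 by RPKM and 0.93 by reads), ITGA1 (2.15 and 0.31), TPM1 (1.62 and 0.012), ENSMMUG00000016672 (1.08 and 0.22), GABBR1 (3.11 and 0.099), A4GALT (3.34 and 2.74), BIVM (1.54 and 0.35), LRRFIP1 (1.45 and 0.85) and STIMATE (1.17 and 0.10). It was larger by as much in SEC14L2 (1.048 and 2.71), SEPTIN6 (0.53 and 1.25) and MGAT4A (0.63 and 1.22).

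LDB3 (ENSMMUG00000003608, chr9:50523927-50593502) encodes a PDZ and LIM domain protein that anchors alpha-actinin at the Z-disc of striated muscle. Its shorter transcript, with 1731 bp of exon, was at 0.744 RPKM in cerebellum, 0.167 in kidney, 0.0516 in spleen, 0.223 in lung and 382 in heart. The longer one, with 5310 bp, was at 1.97, 0.710, 0.673, 1.41 and 65.4 RPKM in the same order. Heart was thus the only tissue with the shorter transcript on top, and the gene was low in the others. In heart the shorter transcript was 5.84-fold above the longer (intervals 379 to 386 and 64.6 to 66.3 RPKM), and in lung the longer was 6.35-fold above the shorter, which rested on 30 reads there. Both transcripts share 1 end, and the shorter lies inside the longer. They are the pair with the strongest change among the 4 transcripts of the gene. A 2082-bp transcript was close behind the 1731-bp one in heart, at 374 RPKM, with 49257 reads against 41913.

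TPM1 (ENSMMUG00000001587, chr7:41427426-41457297) encodes alpha-tropomyosin, which lies along actin filaments and gates contraction in muscle. A transcript of 2875 bp was at 23.9 RPKM in cerebellum, 41.3 in kidney, 29.0 in spleen, 87.6 in lung and 248 in heart. A transcript of 946 bp was at 4.67, 32.6, 15.6, 33.3 and 761 RPKM. The first was the top transcript of cerebellum and the second that of heart, where it was 3.06-fold above the first. Kidney, lung and spleen had another on top, of 1675 bp, at 60.9, 121 and 43.7 RPKM. With 8 transcripts that may share reads, no share moved by more than 15.6 percentage points.

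PDLIM5 (ENSMMUG00000022246, chr5:87425708-87631832), like LDB3 a PDZ and LIM domain protein of the Z-disc, changed in heart too. Its 1853-bp transcript was at 0.357 RPKM in cerebellum, 4.55 in kidney, 2.97 in spleen, 5.28 in lung and 138 in heart. The 2089-bp transcript was at 1.32, 14.6, 7.28, 13.0 and 55.5 RPKM and was on top everywhere but in heart. The share of the shorter transcript was 57.3% in heart and between 12.7% and 20.3% in the other 4 tissues.

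COBL (ENSMMUG00000000246, chr3:75050791-75339914), an actin filament nucleator, also had a top transcript of heart alone. A 2682-bp transcript was at 4.16 RPKM in heart, 2.66 in lung, 0.201 in kidney and 0.160 in cerebellum. It had 0 reads in spleen, where 3 reads would give 0.0167 RPKM. The 3455-bp transcript was at 2.13 RPKM in heart and on top in cerebellum (1.13), spleen (0.449), kidney (2.47) and lung (24.2). The change between cerebellum and heart was 1.95-fold.

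AGER (ENSMMUG00000018442, chr4:31802643-31811839) encodes the receptor for advanced glycation end products, which is abundant in the flat alveolar cells of the lung. A 571-bp transcript rose to the top in lung alone, at 719 RPKM, against 1.80 in cerebellum, 0.218 in kidney, 0.277 in heart and 3.97 in spleen. A 4639-bp transcript was at 184 RPKM in lung and on top in the other tissues, at 11.4, 9.15, 4.58 and 32.4 RPKM. The size was 3.91-fold, between cerebellum and lung. By reads the longer transcript was ahead in lung as well, with 66335 reads against 31955, so the change depends on the division by exon length. The 2 transcripts start 8 bp apart, and the longer one ends 5581 bp beyond the other. RefSeq places PBX2 and RNF5 beside the gene, and whether their exons or reads entered the longer transcript was not tested.

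SH3BP1 (ENSMMUG00000003854, chr10:81548472-81580440), a GTPase-activating protein for Rac, divided the tissues differently. A 1998-bp transcript was at 51.9 RPKM in cerebellum, 20.5 in kidney and 4.28 in heart, where it was on top, and at 1.80 in lung and 6.03 in spleen. A 1797-bp transcript was at 2.70, 2.34 and 0.738 RPKM in the former and on top in lung and spleen, at 8.77 and 22.6 RPKM. The share of the first transcript fell from 93.5% in cerebellum to 5.48% in lung, a move of 88.0 percentage points. In the RefSeq order of genes, SH3BP1 lies between PDXP and GGA1, and whether their exons or reads entered these transcripts was not tested. The transcripts were staggered, with 8622 bp of the genome under the 1998-bp one.

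ITGA1 (ENSMMUG00000001753, chr6:50422911-50595131), the alpha-1 chain of a collagen-binding integrin, had a top transcript of cerebellum alone. The 3086-bp transcript was at 2.06 RPKM in cerebellum, 4.34 in kidney, 9.17 in spleen, 6.27 in lung and 2.65 in heart. The 11048-bp transcript, which spans the gene, was at 0.464, 12.7, 79.9, 35.4 and 5.93 RPKM. The long transcript thus varied much more than the short one, and cerebellum was the tissue in which it was the lower of the pair. The short transcript covers 15162 bp inside the long one, and the size was 4.44-fold. RefSeq places PELO and ITGA2 near the gene. Whether exons or reads of PELO entered the short transcript was not tested.

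EPB41L5 (ENSMMUG00000001244, chr13:126223627-126395762), a FERM domain protein of epithelial cells, had 2 transcripts with 1 shared end. The 1567-bp transcript was on top in kidney and lung, at 17.0 and 19.3 RPKM, and was at 0.219 in cerebellum, 0.484 in heart and 0.447 in spleen. The 4941-bp transcript was at 6.81 and 12.7 RPKM in kidney and lung and on top at 1.26, 0.994 and 0.666 RPKM in the others. The gene was high in the same 2 tissues in which the shorter transcript led.

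**Figure D4:**
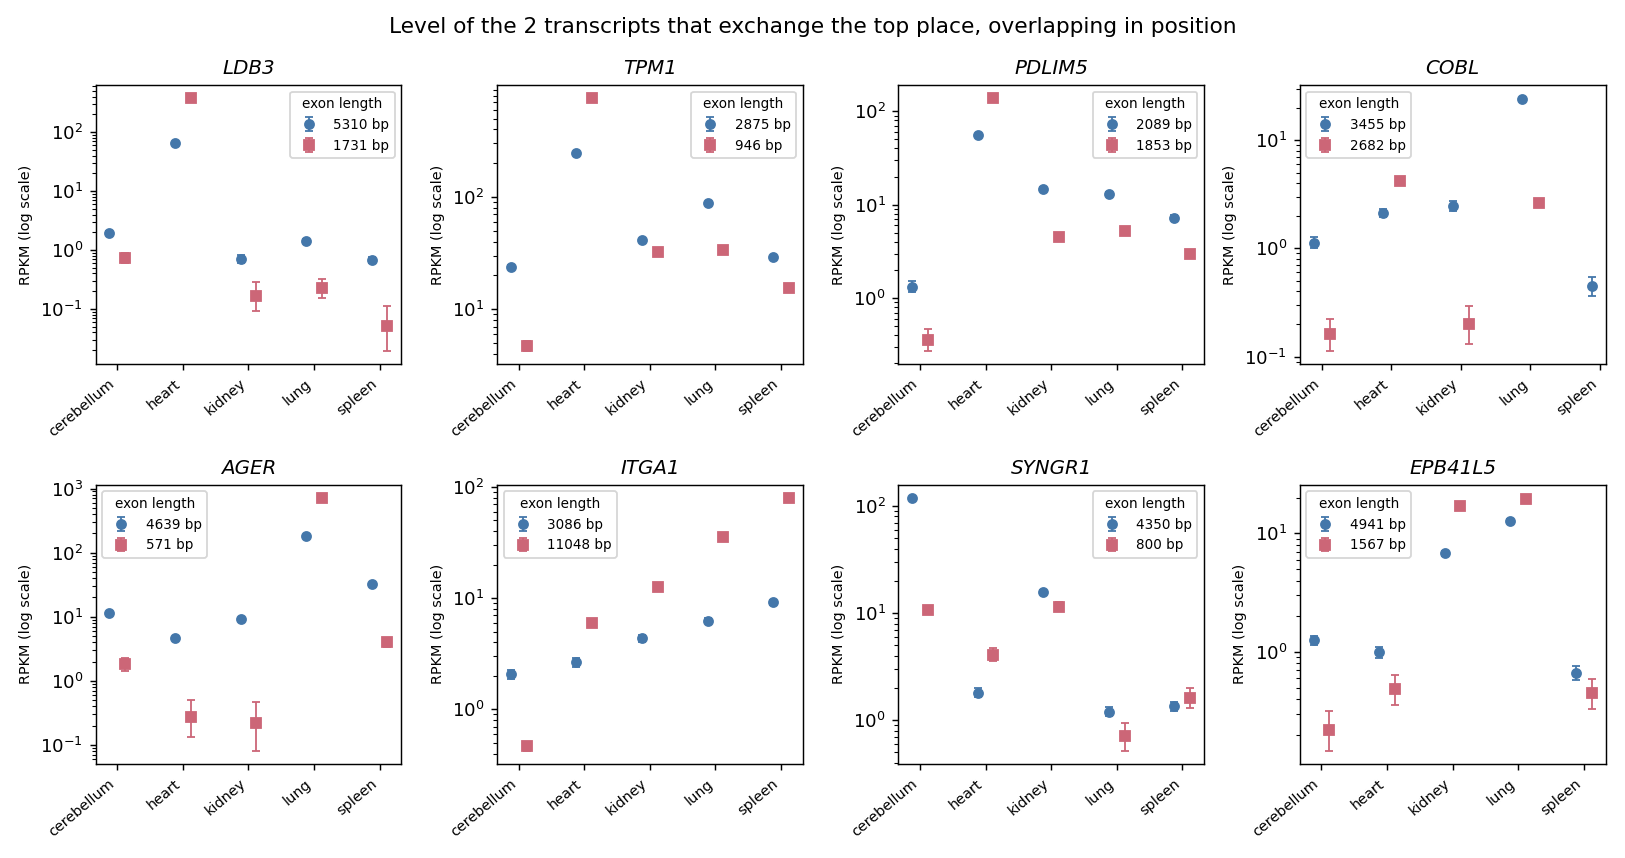
RPKM (log scale) in the 5 tissues of the 2 overlapping transcripts with the strongest change in 8 genes, with 95% exact Poisson intervals of the reads as bars and the exon lengths in the keys. The points change order in heart for LDB3, TPM1, PDLIM5 and COBL, in lung for AGER and in cerebellum for ITGA1, and the 2682-bp transcript of COBL has no point in spleen, where it had 0 reads.

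SYNGR1, RUFY3 and MDGA1 encode proteins known from neurons. SYNGR1 (ENSMMUG00000012101, chr10:83260757-83296741), which encodes the synaptic vesicle protein synaptogyrin, had a 4350-bp transcript at 119 RPKM in cerebellum, 15.8 in kidney, 1.35 in spleen, 1.21 in lung and 1.82 in heart. An 800-bp transcript inside it was at 10.7, 11.5, 1.62, 0.707 and 4.11 RPKM. The shorter was on top in heart and spleen, by 2.26-fold in heart.

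RUFY3 (ENSMMUG00000004465, chr5:58831794-58934892), known for a role in the polarity of neurons, had its 5686-bp transcript on top in cerebellum alone. This transcript was at 18.8 RPKM in cerebellum, 6.96 in kidney, 9.85 in spleen, 4.42 in lung and 0.842 in heart. The 4075-bp transcript was at 5.43, 12.3, 17.5, 7.46 and 1.93 RPKM. Its share was 13.5% in cerebellum and between 32.1% and 33.2% in the other 4 tissues, which were nearly the same.

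PIP4K2C (ENSMMUG00000001179, chr11:54641918-54683016), a phosphatidylinositol kinase, had a transcript that was at most 0.105 RPKM outside cerebellum. This 3421-bp transcript was at 29.2 RPKM in cerebellum, 0.0902 in lung, 0.102 in heart and 0.105 in spleen, and had 0 reads in kidney, where 3 reads would give 0.0182 RPKM. The 3146-bp transcript was at 13.8 RPKM in cerebellum, 15.5 in kidney, 13.1 in spleen, 14.8 in lung and 1.90 in heart. The first extends 28667 bp beyond the second, and RefSeq places KIF5A, a neuronal kinesin, and DTX3 beside the gene. Whether exons or reads of these neighbours entered either transcript was not tested. The change was 2.12-fold.

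MDGA1 (ENSMMUG00000003725, chr4:37413222-37476888), a membrane-anchored protein of neurons, had an 8782-bp transcript at 28.9 RPKM in cerebellum and between 0.563 and 1.14 RPKM elsewhere. The 3299-bp transcript was at 12.9 RPKM in cerebellum and between 0.608 and 2.05 RPKM elsewhere. The longer was on top in cerebellum and, within counting error, in lung, and the change was 1.80-fold between cerebellum and spleen.

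MICAL2 and SEPTIN8 act on the cytoskeleton, the first as an enzyme that oxidizes actin and the second as a filament-forming GTPase. The 1599-bp transcript of MICAL2 (ENSMMUG00000020953, chr14:59654065-59804871) was at 54.1 RPKM in cerebellum, 0.764 in kidney, 3.38 in spleen, 5.90 in lung and 10.1 in heart. The 6842-bp transcript was at 22.8, 1.81, 8.30, 15.4 and 5.23 RPKM, so that cerebellum and heart shared the shorter one. In SEPTIN8 (ENSMMUG00000010309, chr6:129157323-129184616), the 2811-bp transcript was on top in cerebellum (71.5 RPKM), lung (15.7) and heart (5.21), and was at 4.29 in kidney and 4.81 in spleen. The 4126-bp transcript was on top in kidney (10.3) and spleen (7.76). The sizes were 2.37-fold and 2.41-fold.

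The 3 largest changes beyond counting error between overlapping transcripts in which kidney had a top transcript of its own were in BRCA1, MGAT4A and FOXN2. MGAT4A (ENSMMUG00000022909, chr13:98485030-98632656), a glycosyltransferase that branches N-glycans, had a 2222-bp transcript at 13.3 RPKM in kidney and 0.966 in cerebellum, 2.60 in spleen, 1.78 in lung and 0.931 in heart. The 1475-bp transcript varied less, at 7.76 RPKM in cerebellum, 8.58 in kidney, 7.59 in spleen, 5.16 in lung and 5.84 in heart. The size was 1.55-fold. BRCA1 (ENSMMUG00000001329, chr16:53178134-53277788), a DNA repair gene with 10 transcripts here, changed by 1.64-fold on 141 and 54 kidney reads. FOXN2 (ENSMMUG00000020677, chr13:48492537-48556258), a forkhead transcription factor, changed by 1.34-fold, with a 1197-bp transcript at 3.03 RPKM and a 5266-bp one at 2.26 RPKM in kidney. In ABCA6 (ENSMMUG00000018592, chr16:64248811-64479010), a lipid transporter of the ABC family, kidney and cerebellum shared a 4639-bp transcript, at 7.68 and 0.383 RPKM. The other tissues had a 5956-bp transcript on top, at 6.03 RPKM in lung, 1.42 in heart and 1.33 in spleen, and the size was 3.01-fold between kidney and spleen. The 4639-bp transcript covers 226739 bp of the genome and the 5956-bp one 60308 bp. RefSeq places ABCA8, ABCA9, ABCA10 and ABCA5, of the same family, near the gene. Whether their exons or reads entered these transcripts was not tested.

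For lung, the 3 largest changes of this kind were in AGER, GPRC5C and DTNA, and for spleen in RPS27L, ENSMMUG00000021473 and SEPTIN6. In lung, AGER was followed by GPRC5C (ENSMMUG00000013324, chr16:69710117-69730374), an orphan receptor, whose 2882-bp transcript led the 2269-bp one at 19.3 against 13.8 RPKM in lung and was behind it elsewhere, a change of 1.40-fold. DTNA (ENSMMUG00000003302, chr18:27702955-27877813), which encodes the dystrophin partner dystrobrevin, had 3 top transcripts, with 1.37-fold for lung and 1.68-fold between heart and spleen. RPS27L (ENSMMUG00000016350, chr7:41526968-41530372), a ribosomal protein gene, had a 2918-bp transcript on top in spleen alone, at 2.25 against 0.968 RPKM for the 508-bp one. In the other 4 tissues the shorter led at 0.652 to 2.12 RPKM, on 27 to 76 reads, but beyond counting error in heart only. The size was 2.30-fold. SEPTIN6 (ENSMMUG00000017669, chrX:117886946-117966258) changed by 1.45-fold between cerebellum and spleen. ENSMMUG00000021473 (chr19:50573502-50607868), which has no symbol, changed by 1.71-fold between heart and spleen.

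The last of the 20 genes were HSD17B7 (ENSMMUG00000009332, chr1:141342395-141360259), an enzyme of cholesterol synthesis, and 3 without a symbol. HSD17B7 changed by 2.09-fold, on 31 to 223 reads per transcript. ENSMMUG00000016672 (chr2:44634327-44730552) changed by 2.11-fold between cerebellum and kidney, ENSMMUG00000020001 (chr9:90690621-90807740) by 1.92-fold between cerebellum and heart, and ENSMMUG00000018374 (chr19:18820025-18836742) by 1.88-fold between cerebellum and kidney. In each of these 3 genes the 2 transcripts were the only ones of the gene.

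The largest changes of all were between transcripts that do not overlap. The 17 genes of this kind with at least 2-fold were chosen after their values were seen, and ranged from 18.2-fold in PEX26 to 2.07-fold in SEC14L2. Both transcripts of each carry the same gene identifier in the files but cover separate stretches of the chromosome. For such pairs no exon is shared, so a read cannot be counted on both by overlap. Whether each is a part of the named gene or of a neighbouring one was not tested, and the neighbours given below are those of the RefSeq annotation of another assembly (T2T-MMU8v2.0), used for gene order only.

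PEX26 (ENSMMUG00000014140, chr10:62770460-62828717), which anchors the machinery of protein import to peroxisomes, had a 2015-bp transcript at 35.8 RPKM in cerebellum, 8.30 in kidney, 0.163 in spleen, 1.03 in lung and 58.7 in heart. A 2044-bp transcript was at 4.04, 7.83, 6.78, 7.33 and 3.23 RPKM, which is a narrower range. They lie 22046 bp apart, a 2076-bp transcript that spans both was on top in kidney at 10.01 RPKM, and the neighbours of PEX26 are TUBA8 and MICAL3.

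MYZAP (ENSMMUG00000012690, chr7:35923839-36046401), a protein of the intercalated discs that join heart muscle cells, had a 2352-bp transcript at 64.5 RPKM in heart, 35.9 in lung, 2.09 in kidney, 1.91 in spleen and 0.360 in cerebellum. A 1709-bp transcript was at 7.22, 5.88, 6.41, 9.74 and 4.11 RPKM in that order. The former was on top in heart and lung, the size was 8.93-fold, and POLR2M and CGNL1 lie close by.

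DDX39B (ENSMMUG00000008839, chr4:31164612-31181034), an RNA helicase of splicing and mRNA export, had a 1314-bp transcript at 247 RPKM in cerebellum. It was at 0.142 RPKM in kidney, on 9 reads, 1.27 in spleen, 0.362 in lung and 0.889 in heart. The 1646-bp transcript was at 40.5, 24.0, 51.6, 43.0 and 18.1 RPKM in cerebellum, kidney, spleen, lung and heart. The change was 6.09-fold, and the genes nearby are NFKBIL1, ATP6V1G2, a proton pump subunit, MCCD1 and MICB.

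GABBR1 (ENSMMUG00000021483, chr4:29289572-29369271), a subunit of the metabotropic GABA receptor, had a 4015-bp transcript at 165 RPKM in cerebellum, 3.67 in kidney, 9.72 in spleen, 9.56 in lung and 4.42 in heart. A 498-bp transcript was at 84.0 RPKM in spleen, 9.04 in lung, 4.61 in kidney and 0.197 in cerebellum and had 0 reads in heart, where 3 reads would give 0.0951 RPKM. Spleen and kidney had the short transcript on top. They lie 43505 bp apart, and UBD, an immune-induced ubiquitin-like gene, and OR2H2 are neighbours.

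A4GALT (ENSMMUG00000010194, chr10:86557554-86676029), the enzyme that makes the glycolipid Gb3, had a 1524-bp transcript at 0.9498 RPKM in cerebellum, 55.8 in kidney, 22.4 in spleen, 34.3 in lung and 46.4 in heart. A 2309-bp transcript was at 11.4, 10.8, 15.0, 16.5 and 4.596 RPKM and led in cerebellum alone. The size was 10.1-fold, and ARFGAP3 is a neighbour.

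DHRS4 (ENSMMUG00000007465, chr7:86841782-86941243), a carbonyl reductase with close copies beside it, had a 924-bp transcript at 203 RPKM in kidney and between 0.306 and 0.855 RPKM in the other 4 tissues. An 818-bp transcript was at 29.3 RPKM in kidney, 2.46 in cerebellum, 5.48 in spleen, 7.89 in lung and 15.6 in heart. The change of 6.94-fold is uncertain, as reads of DHRS2, DHRS4L1 and DHRS4 may not be told apart.

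DTX2 and SPNS1 changed by 4.56-fold and 4.13-fold. DTX2 (ENSMMUG00000017570, chr3:49851610-49910420), a ubiquitin ligase of the Notch pathway, had a 2383-bp transcript at 21.1 RPKM in lung and between 0.490 and 2.18 RPKM elsewhere, and UPK3B and ZP3 are its neighbours. Its 2679-bp transcript was at 13.2 RPKM in kidney and 4.63 in lung. SPNS1 (ENSMMUG00000006922, chr20:26852203-26868227), a lysosomal transporter, had a 1439-bp transcript at 29.4 RPKM in spleen, 10.3 in lung, 3.52 in cerebellum, 1.64 in kidney and 0.209 in heart, with LAT, a signalling adaptor of T cells, as a neighbour. Its 1600-bp transcript was at 7.13 RPKM in spleen and 13.0 in kidney.

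**Figure D5:**
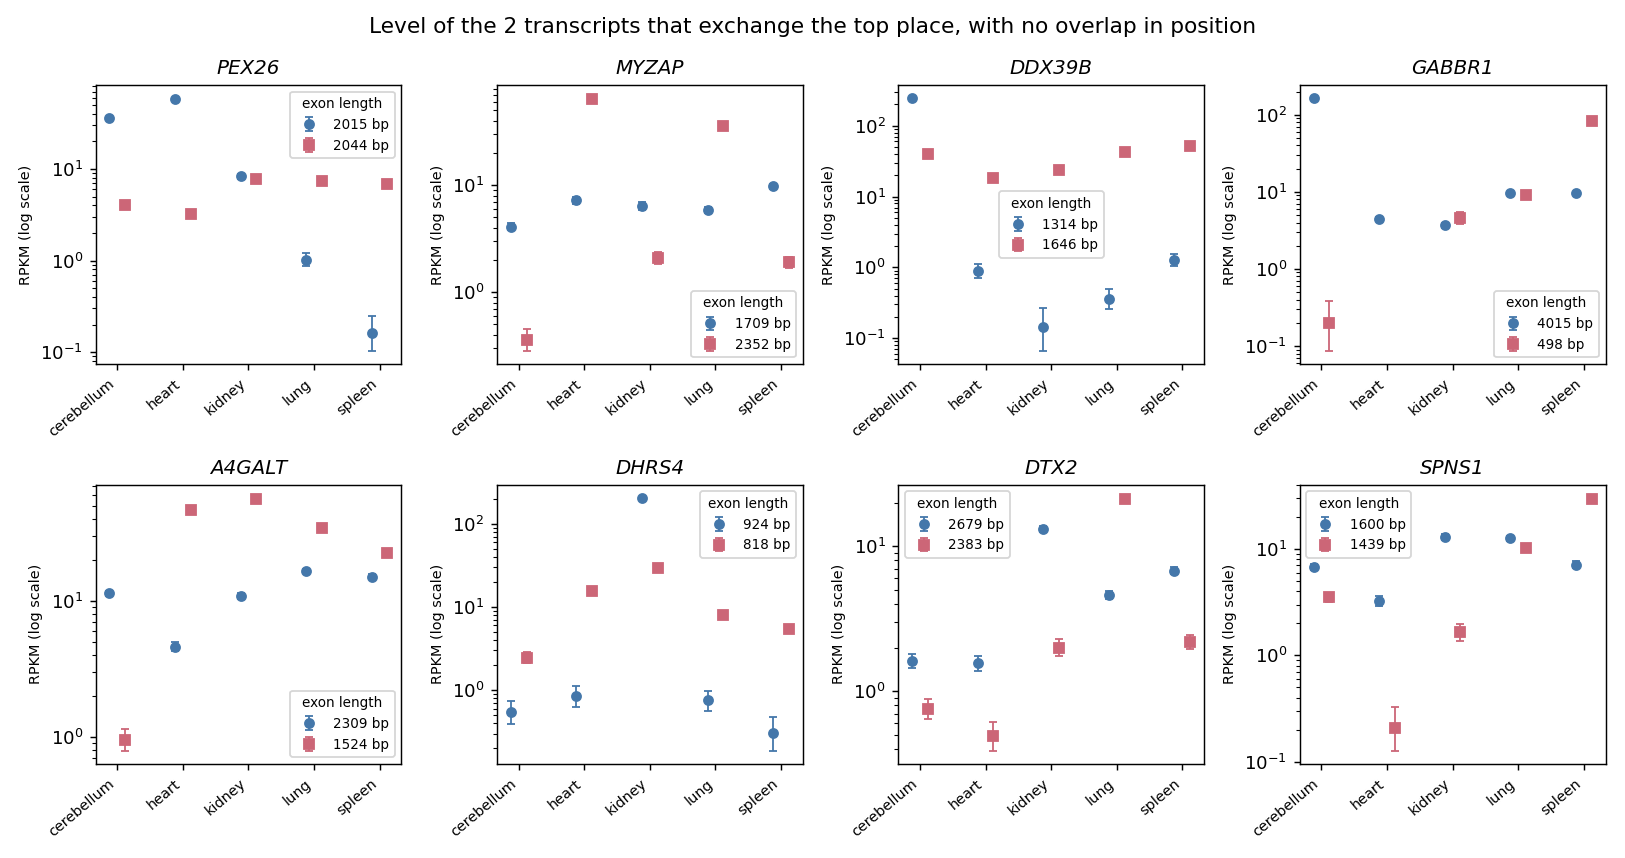
RPKM (log scale) in the 5 tissues of the 2 non-overlapping transcripts with the strongest change in 8 genes, with 95% exact Poisson intervals of the reads as bars and exon lengths in the keys. In PEX26, A4GALT and DDX39B 1 transcript varies less between tissues than the other, and the 498-bp transcript of GABBR1 has no point in heart, where it had 0 reads.

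The other 9 genes of this kind changed by 2.07-fold to 3.06-fold. They were ARAP1 (3.06-fold), BIVM (2.90-fold), LRRFIP1 (2.72-fold), ZNF581 (2.35-fold), STIMATE (2.25-fold), TUBG1 (2.23-fold), TBC1D10A (2.23-fold), ENSMMUG00000012476 (2.11-fold) and SEC14L2 (2.07-fold). In STIMATE (ENSMMUG00000014526, chr2:83449828-83518602), a regulator of calcium entry, a 708-bp transcript was at 36.9 RPKM in lung and 13.7 in heart against 2.25 in spleen, beside the neighbour MUSTN1. In TUBG1 (ENSMMUG00000016797, chr16:52732308-52790051), the gamma-tubulin of microtubule origins, a 1505-bp transcript was at 35.0 RPKM in cerebellum and between 2.64 and 4.09 RPKM elsewhere, and the near copy TUBG2 is a neighbour, so its reads are uncertain.

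Gene families known for isoforms were taken as 5 lists. Among the 25 measured genes of actin, tropomyosin and muscle cytoskeleton, 11 changed, 4 beyond counting error and 3 by at least 1.5-fold (LDB3, TPM1 and PDLIM5). The fourth was TPM2 (ENSMMUG00000016321, chr15:41830398-41839849), beta-tropomyosin, at 1.27-fold. A 2308-bp transcript of TPM2 was on top in cerebellum (12.6 RPKM) and heart (45.5), and a 2258-bp one in kidney (9.09), lung (42.4) and spleen (19.99). In kidney the 2 levels, 9.09 and 8.79 RPKM, were nearly equal.

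Among 29 splicing regulators and other RNA-binding proteins, 10 changed, 6 beyond counting error and 0 by at least 1.5-fold. The 6 were HNRNPA1 (1.23-fold), SRSF7 (1.16-fold), HNRNPDL (1.12-fold), TRA2B (1.08-fold), CELF1 (1.06-fold) and HNRNPK (1.04-fold), all of them regulators of exon choice or RNA processing. QKI and PTBP3 moved a share by 21.0 and 20.8 percentage points without a change. In QKI (ENSMMUG00000000428, chr4:160236843-160359864), known for myelin and muscle RNAs, the 3678-bp transcript held 39.2% in cerebellum, 60.2% in kidney, 53.7% in spleen, 46.3% in lung and 51.3% in heart.

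Of 16 genes of membrane traffic and endocytosis, 8 changed and 4 did so beyond counting error, which were CLTA (1.1003-fold), DNM2 (1.07-fold), PICALM (1.06-fold) and CLTC (1.04-fold). Of 11 genes in a list named for metabolism and mitochondria, 4 changed and 2 did so beyond counting error. These were OPA1 at 1.21-fold and ATP2B1, a calcium pump of the plasma membrane, at 1.096-fold.

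Of 17 signalling genes and transcription factors, 8 changed and 3 did so beyond counting error, CD47, CAMK2G (1.08-fold) and MEF2C (1.053-fold). CD47 (ENSMMUG00000008791, chr2:28136141-28184758), the membrane signal that restrains phagocytosis, changed by 1.46-fold. Its 4898-bp transcript was at 18.1 RPKM in cerebellum, 4.42 in kidney, 23.9 in spleen, 19.99 in lung and 2.07 in heart. The 1397-bp transcript was at 4.01, 4.99, 21.5, 13.0 and 3.02 RPKM and led in kidney and heart. In kidney its interval (4.47 to 5.56 RPKM) overlapped those of the 4898-bp transcript and of a 1119-bp one at 4.98 RPKM. The share of the 4898-bp transcript was 54.3% in cerebellum and between 16.4% and 28.6% elsewhere.

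Over all 5 lists, 41 of 98 measured genes changed (41.8%), 19 beyond counting error (19.4%) and 3 by at least 1.5-fold (3.06%). Over all 4442 genes these were 28.8%, 6.15% and 1.4%. The 2 sets are not matched, since most list genes had more than 2 transcripts, while 2402 of the 4442 had 2. Changes beyond counting error were found in 3.21% of genes with 2 transcripts and in 17.6% of those with 5 or more. The median of the largest share move was 5.29 percentage points in the lists and 4.66 over all genes. The lists were chosen for known isoforms and with results of these data in view.

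ADAR and ADARB1 encode the RNA-editing enzymes that the study was about, and neither changed beyond counting error. ADAR (ENSMMUG00000016093, chr1:133130065-133176977), which edits adenosine to inosine, had the same transcript on top in all 5 tissues, at 50.4% in each. Its 2 transcripts had equal reads in cerebellum, kidney and heart and differed by 3 or 4 reads in lung and spleen, so these counts cannot tell them apart. In ADARB1 (ENSMMUG00000010695, chr3:1487785-1572495) the top place passed between 2 of 3 transcripts, but within counting error and with a largest share move of 0.129 percentage points.

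At the limits of the choice, 4 genes had exactly 100 reads for their most read transcript in the lowest tissue, among them ENSMMUG00000006807, and 4 had 99, among them NT5E. The widest included gene was ZDHHC14, which spans 298007 bp, and SLC8A1, at 303753 bp, was left out.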

How the data were processed

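The authors prepared strand-specific poly(A)-positive RNA-Seq libraries from total RNA and aligned reads to rheMac2 and its transcripts with BWA; the submitters' processing notes also name TopHat 1.2.0. The counting tool is not given in the sources used here. The read counts per transcript were deposited raw, without strand or exon positions. RPKM, deposited by the authors in the same files, equalled reads scaled by exon length and properly mapped reads in all 258815 rows (within 1e-09 of RPKM plus 1). The 5 files were joined by transcript. Starts were 0-based in 4 files and are given 1-based here. In 3 of the 4442 genes, and 7 transcripts in all, exon lengths differed between files and were used as each file had them.

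Top transcripts, shares, sizes of change and exact Poisson intervals (95%) were computed with Python 3.11.15, numpy 2.4.6, pandas 2.3.3 and scipy 1.17.1, and the steps were tested on simulated data. With 1 sample per tissue no test was made. Symbols came from a table of gene identifiers, which named 3993 of the 4442 genes. Genes were named when they were among the 20 largest changes beyond counting error with overlapping transcripts over 200 bp, among the 3 largest in which a tissue alone differed, in a gene list with at least 1.5-fold, ADAR or ADARB1, or at a limit. The non-overlapping genes and the other list genes were named after their values were seen. The values of 1 list gene are not reported here. Members, lists and rules were chosen with earlier results of these data known. The alternatives tried were other read minimums, span limits and thresholds, leaving out a tissue, other treatments of transcripts, a pseudocount, and top transcripts by reads.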

Additional observations from a re-analysis of the deposited data

How the results depend on the processing

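Transcripts were also ranked by reads instead of RPKM. The changes numbered 521 in place of 1278, those beyond counting error 90, those of at least 1.5-fold 38, of which 15 were without overlap, and cerebellum and kidney differed in 47 genes in place of 179. Under this ranking the log2 of the smaller ratio turned negative, so that the change of the same transcripts was lost, in AGER (-1.05), ARAP1 (-0.044), EPB41L5 (-0.34), MICAL2 (-0.85), RPS27L (-1.32), SYNGR1 (-1.27), ENSMMUG00000020001 (-1.58), MDGA1 (-0.57), ENSMMUG00000021473 (-1.41), DTNA (-0.47) and FOXN2 (-1.72). With a read minimum of 3, 2066 genes changed, 184 by at least 1.5-fold (43 without overlap), and 693 moved a share by 20 points. Without cerebellum these were 119 changes beyond counting error, 38 of at least 1.5-fold (17 without overlap) and 114 share moves. With only transcripts that overlap the most expressed one, 2 genes without overlap remained. A threshold of 1.2-fold gave 208 genes and of 2-fold 33, and a move of 10 points gave 1033 and of 30 points 80. The other 93 counts were within 1.5 times the main ones. The percentage with the greatest weighted exon length in cerebellum ranged from 37.4 to 48.4 under 12 alternatives added after seeing the data. No paired analysis was possible because each tissue had 1 sample.

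Depth limits the values of low transcripts, in heart and kidney most. Reads shared between transcripts, the lack of replicates and the gene models limit what a change of top transcript shows, and their part was not tested.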
